A study of Mus musculus with 4 samples.

Results

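The 20 genes described here lay below 400 intensity units on the arrays of dendritic cell progenitors, of cells after 7 days and of cells after 10 days of differentiation, and reached at least 800 units on the array of day 10 cells that had received TNF. They were chosen by those measured values, out of 8220 mouse genes (0.243%), so their higher level with TNF is a description of the choice and is not tested or used as support. The study grew dendritic cell progenitors from mouse bone marrow, amplified them in culture, let them differentiate, and added tumour necrosis factor alpha (TNF) for 16 hours to a culture at day 10. Each of the 4 groups (progenitor, day 7, day 10, day 10 with TNF) is 1 array of total RNA, so no replicate spread exists and no p-value is given. The labels used here give no strain, genotype, cytokine mix or TNF dose, and do not say how many mice or cultures stand behind an array.

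Dendritic cells take up antigen in tissues and, on meeting inflammatory signals, mature into cells that present it to T cells in lymph nodes. TNF is one such signal: it binds TNF receptors, which free NF-kB transcription factors from their inhibitors, and these switch on genes of inflammation, costimulation and survival. Feedback regulators, among them IkB proteins and deubiquitinating enzymes, are switched on by the same route. In bulk cultures like these, more cells that express a gene and more RNA per cell cannot be told apart.

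The deposited values are intensities of probe sets on an Affymetrix mouse array, with 1 probe set taken per gene. With the top and bottom tails left out, probe sets averaged 1000 units on every array (central 96%), and 22.8% to 24.3% of probe sets had a value below 0. Between 3995 and 4109 of the 8220 genes lay above 400 units on each array. The 9 probe sets for bacterial spike-in transcripts had a median log2 ratio of -0.46 between the TNF and the day 10 array and of 1.37 between day 10 and day 7. Levels set side by side for day 7 and day 10 below, the marker genes among them, carry that difference between the arrays. Between TNF and day 10 the median over 4357 genes above 400 units on either array was -0.01. Of 15 dendritic cell markers measured, 4 lay at 800 units or more on the progenitor array and 13 on each later array: the integrin gene Itgax (CD11c) stood at 109, 6434, 20071 and 28304 units on the progenitor, day 7, day 10 and TNF arrays, and the class II gene H2-Ab1 at 361, 12445, 44084 and 48314. Flt3, a marker of progenitors too, was lower later, at 2045 units in progenitors and 492 at day 10, and Zbtb46 was at 75.4 units or less on all 4 arrays. Of 16 macrophage markers measured, 11 lay at 800 units or more at day 10 (Mmp12 at 58268), while C1qa and Siglec1 were below 0. Of 17 granulocyte markers, 10 lay at 800 units or more at day 10 (S100a8 at 54983). Mpo (190.5 units) and Ctsg (150) were among those that did not. Intensities of different probe sets are not compared with each other below, because brightness also depends on the probe.

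On the TNF array the 20 genes ranged from 800.2 to 7591 units with a median of 1064. On the 3 other arrays they ranged from -1262 to 389 units, and 11 of the 20 were below 0 on at least 1 of those arrays. Folds are given against 400 units as lower bounds, since no member had a measured level on the dim side. All 20 are at least 2-fold higher with TNF than at day 10 by construction, as are 220 of 4357 genes in all (5.05%). The same holds against day 7, where 9.16% of genes were higher with TNF, and against the progenitor, where 16.0% were. Nothing is read from the members' own count.

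**Figure D1:**
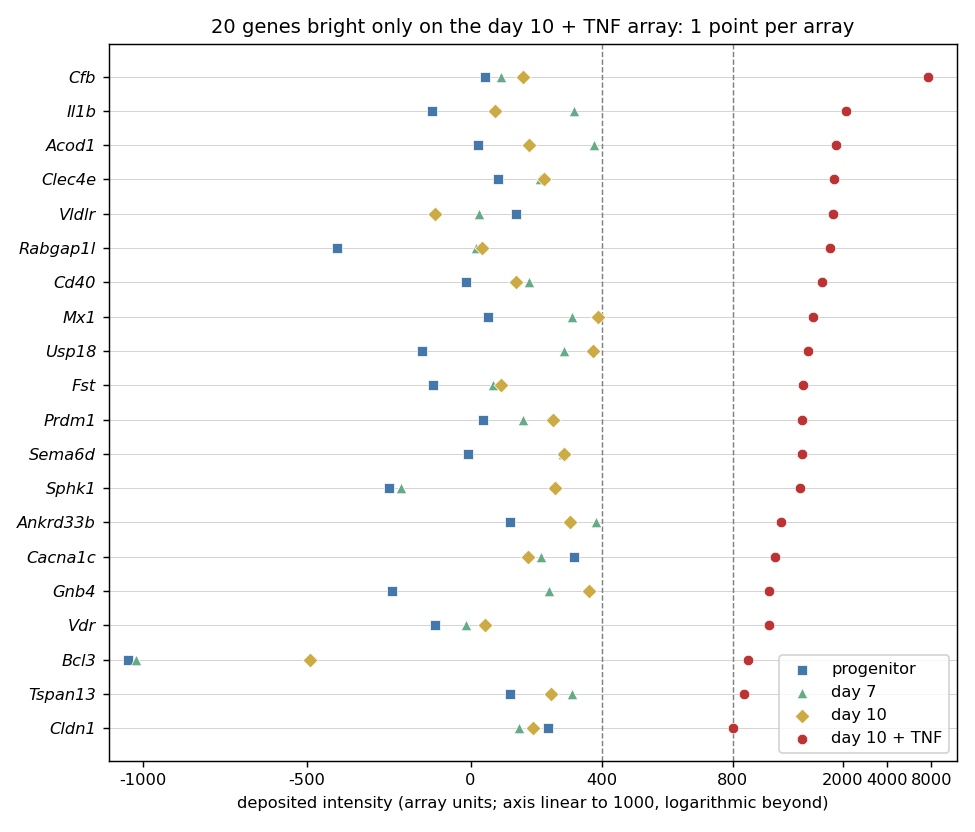
Deposited intensity (horizontal axis, linear to 1000 units and logarithmic beyond) of the 20 genes, with 1 point per array; dashed lines mark 400 and 800 units. All red points (day 10 with TNF) lie at or right of 800.2 units and all others at or left of 389 units, with Bcl3 far below 0 on the 3 arrays without TNF.

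Among secreted proteins, Cfb encodes complement factor B, the serine protease that forms the convertase of the alternative pathway. Its 4 values were 43.6 units in progenitors, 94.3 and 158.8 after 7 and 10 days, and 7591 with TNF, at least 19.0-fold higher. The 3 arrays without TNF all lay close to the background. Other complement genes did not share this pattern: of 12 measured, 5 lay above 400 units at day 10 or with TNF, and 0 of those differed 2-fold. For properdin (Cfp), which stabilises the same convertase, the values were 9193 (day 10) and 9072 units (TNF), and the anaphylatoxin receptor gene C3ar1 at 1774 and 1773. C2, which encodes the classical pathway protease related to factor B, was at 251 and 423 units.

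Il1b encodes interleukin-1 beta, an inflammatory cytokine that is made as a precursor and cut by caspase-1. Its values were -117 units in progenitors, 317 at day 7, 74.7 at day 10 and 2097 with TNF, at least 5.24-fold higher. The day 7 array was the highest of the 3 without TNF, yet still below 400 units. Around it, the interleukin-1 genes went different ways. Il1a, the other interleukin-1 agonist, was 2.27-fold higher with TNF (831 and 1886 units). Il1rn, the receptor antagonist, was at 3936 and 4055 units, and Casp1 at 933 and 1033. The decoy receptor gene Il1r2 was 4.02-fold lower, at 5273 and 1311 units, and Il18, a cytokine cut by the same caspase, was at least 7.97-fold lower, at 3190 and 310.

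Fst encodes follistatin, a secreted protein that binds and blocks activins. It stood at -115 units in progenitors, 69.0 at day 7, 93.5 at day 10 and 1070 with TNF, at least 2.67-fold higher. Inhba, which encodes the subunit of activin A, was also higher with TNF, at 1856, 1175, 1069 and 7992 units on the 4 arrays (7.48-fold over day 10). It was already well above 800 units without TNF, unlike Fst. Of 6 activin pathway genes above 400 units at day 10 or with TNF, Inhba was the 1 that was at least 2-fold higher. The receptor gene Acvrl1 was the 1 that was at least 2-fold lower (2.52-fold), by a probe set of looser probe selection (_r_at).

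Among surface receptors, Cd40 encodes the receptor through which CD4 T cells license dendritic cells. It was at -12.7 units in progenitors, 177 at day 7, 139 at day 10 and 1456 with TNF, at least 3.64-fold higher. Of the costimulatory genes nearest to it in function, Cd80 (168, 382, 449 and 1283 units) missed the rule through its day 10 value, and Cd86 (310, 1159, 992 and 2350) was above 400 units from day 7. The adaptor genes of the CD40 receptor on the array included Traf1, 4.26-fold higher with TNF at 4176 units, and Traf6, 2.05-fold higher at 2962; Traf2 (1630 and 2020 units at day 10 and with TNF) and Jak3 (1497 and 1541) were under 2-fold.

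Clec4e encodes Mincle, a C-type lectin that recognises mycobacterial glycolipids and signals through the Fc receptor gamma chain. Its values were 85.0, 211, 225 and 1752 units in progenitors, at day 7, at day 10 and with TNF, at least 4.38-fold higher. The 7 measured genes of related lectins and their signalling differed less than 2-fold between day 10 and TNF, although all lay above 400 units on at least 1 of these arrays. Clec4d, the lectin that pairs with Mincle, was at 3074 and 3673 units, and the kinase gene Syk at 8689 and 8924. Fcer1g, the gamma chain gene, was at 416 and 388 units by its probe set.

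Vldlr encodes a lipoprotein receptor that also binds reelin. It was read at 140 units in progenitors, 25.4 at day 7, -107 at day 10 and 1727 with TNF, at least 4.32-fold higher, by a probe set whose name ends in _r_at, a mark of looser probe selection. Its other probe sets did not show this, as given below. Among 5 tested genes of lipoprotein receptors and their ligands, Scarb1 was 2.37-fold lower with TNF, at 5475 and 2309 units, and Lrp1 was at 19686 and 10894.

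Sema6d encodes a transmembrane semaphorin, a ligand of plexin-A1. It was at -8.5 units in progenitors, 282 at day 7, 284 at day 10 and 1055 with TNF, at least 2.64-fold higher. Of 8 other semaphorin and plexin genes tested, Sema7a (685 and 1579 units) and Sema4a (9126 and 18544) were more than 2-fold higher with TNF, and the plexin gene Plxna3 was 2.24-fold lower (3636 and 1624). The semaphorin receptor gene Plxnd1 was at 9152 and 18015 units, 1.97-fold.

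Tspan13, a tetraspanin gene, was at 120.5, 309, 244 and 834 units on the 4 arrays in the same order, at least 2.08-fold higher. Tetraspanins organise membrane proteins into domains, and 9 other measured tetraspanin genes lay above 400 units at day 10 or with TNF. Of these 9, none was 2-fold higher with TNF, and Tspan4 (1651 and 46.8 units) and Tspan32 (4108 and 1863) were lower, by at least 4.13-fold and by 2.20-fold. Cldn1, which encodes the tight junction protein claudin-1, was at 238, 149, 190.5 and 800.2 units, at least 2-fold higher and the closest of all to the upper threshold. Cacna1c encodes the pore subunit of an L-type calcium channel, and was at 317, 216, 175 and 928 units by a probe set marked as shared (_s_at), at least 2.32-fold higher. All 7 other calcium channel subunit genes measured lay at or below 400 units on both day 10 arrays.

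Among enzymes, Acod1 encodes the mitochondrial enzyme that makes itaconate from cis-aconitate in activated myeloid cells. Its values were 22.7, 377, 179 and 1813 units in progenitors, at day 7, at day 10 and with TNF, at least 4.53-fold higher. They come from a probe set marked as shared (_s_at), and the other probe set of the gene is given below. As for Il1b, the day 7 array was the highest of the 3 without TNF. Sphk1 encodes sphingosine kinase 1, which makes sphingosine-1-phosphate, and was at -248, -212, 257 and 1034 units, at least 2.59-fold higher. Its relative Sphk2 was above 400 units from day 7 and was at 1260 and 1484 units at day 10 and with TNF. Of 8 tested sphingolipid genes, 0 differed 2-fold.

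Promoters of these genes, the bases just before the annotated start, were taken from RefSeq (GRCm38.p6), where 14 of the 20 genes had an entry; Cfb, Cd40, Mx1, Usp18, Fst and Gnb4 had none. The 120 bases before the start are shown for Il1b, Acod1 and Clec4e, because these inflammatory genes hold the TATA motif at almost the same place; capitals mark it. They lie on the minus strand at chr2:129371140-129371259, the plus strand at chr14:103046892-103047011 and the minus strand at chr6:123289872-123289991.
Il1b: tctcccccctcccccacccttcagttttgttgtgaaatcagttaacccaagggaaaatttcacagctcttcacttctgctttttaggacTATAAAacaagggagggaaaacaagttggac
Acod1: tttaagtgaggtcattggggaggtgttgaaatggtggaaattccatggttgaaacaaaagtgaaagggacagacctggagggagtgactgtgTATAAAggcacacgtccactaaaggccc
Clec4e: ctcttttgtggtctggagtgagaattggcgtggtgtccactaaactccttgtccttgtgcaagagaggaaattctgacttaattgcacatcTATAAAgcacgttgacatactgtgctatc
The motif TATAAA begins 31 bases before the start in Il1b, 28 in Acod1 and 29 in Clec4e. A start of Sphk1 carries it as well, at 31 bases, so 4 of the 14 genes (28.6%, Wilson 95% interval 11.7% to 54.6%) hold it on either strand within 250 bases, beside 14.3% of 27025 genes in the table. In all 4 it lies 26 to 35 bases before the start on the gene's own strand, where 557 of the 27025 genes (2.06%) hold it. That range was set after the positions were seen. The Wilson interval treats the 14 genes as independent draws, which genes picked by the rule are not. No enrichment is read from either share.

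Other motifs were searched on both strands of the same 250 bases. The kappaB consensus, the NF-kB binding motif, was found in 1 of the 14 genes (7.14%), Sphk1, beside 8.23% of all genes. The AP-1 motif TGANTCA was found in Prdm1 and at nested starts of Sphk1, 14.3% beside 7.82%. The interferon-stimulated response element was found in 0 of the 14, beside 3.46%. These matches are letters in a short window, and the absence of a match says nothing about sites elsewhere. Genes with several annotated starts had several windows, as Sphk1 did.

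Interferon-induced genes contributed Mx1 and Usp18. Mx1 encodes an antiviral GTPase and was at 51.8 units in progenitors, 309 at day 7, 389 at day 10 and 1254 with TNF, at least 3.13-fold higher. Usp18 encodes the protease that removes ISG15 from proteins and dampens interferon receptor signalling, and was at -149, 285, 374 and 1164 units, at least 2.91-fold higher. Both were just under 400 units at day 10, and after scaling to a common 75th percentile or quantile normalization Mx1 reached 409 and 408 units there and left the set. Of 29 interferon-response genes measured, 16 were tested, 3 were at least 2-fold higher with TNF and 0 at least 2-fold lower. The median log2 ratio was 0.59. Mx1 and Usp18 are higher by the rule itself; without them 1 of 14 was higher, where 5.05% of all genes were, and the median was 0.39 beside -0.01 over all genes. That 1 was the guanylate-binding protein gene Gbp2, at 2260 and 8433 units (3.73-fold). Below 2-fold, the immunoproteasome gene Psmb8 was at 8362 and 16695 units, Gbp3 at 622 and 1225, and the peptide transporter gene Tap1 at 5169 and 9158. The 13 measured genes that were not tested, Isg15, Ifit1 and Cxcl10 among them, lay at or below 400 units on both arrays. This list, too, was chosen with earlier results of these data known.

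Transcription regulators were Bcl3, Prdm1 and Vdr. Bcl3 encodes an unusual IkB protein that binds NF-kB p50 and p52 in the nucleus. It was at -1262 units in progenitors, -1105 at day 7, -488 at day 10 and 847 with TNF, at least 2.12-fold higher. Values this far below 0 give no level for the 3 arrays without TNF. Of 38 measured genes in the list of NF-kB targets and TNF response, 29 were tested. Of these, 12 were at least 2-fold higher with TNF and 1 at least 2-fold lower, with a median log2 ratio of 0.69. Without Bcl3, which is higher by the rule, 11 of 28 were higher, 1 was lower and the median was 0.59. Over all genes 5.05% were higher, 4.82% lower and the median was -0.01. Since the list was chosen with earlier results of these data known, its counts are a description. The inhibitor genes Nfkbia (8366 and 29182 units) and Tnfaip3 (531 and 1660), and the subunit genes Nfkb2 (2138 and 6068) and Relb (2508 and 7361), were between 2.84-fold and 3.49-fold higher. Each of these 4 was above 400 units at day 10, unlike Bcl3. Tnf itself, at 837 units at day 7, had 182 and 407 units at day 10 without and with the cytokine.

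Prdm1 encodes Blimp-1, a transcriptional repressor that ends proliferation programmes in lymphocytes and also acts in dendritic cells. Its values were 38, 160, 251 and 1059 units on the progenitor, day 7, day 10 and TNF arrays, at least 2.65-fold higher. Of genes it is known to repress in B cells, the class II activator gene Ciita was at 1408 and 1771 units at day 10 and with TNF, Bcl6 was 2.21-fold higher at 1110 units, and Myc was at least 1.69-fold lower, at 677 and 358 units. Irf4, which often acts beside Prdm1, was 2.77-fold higher at 11530 units. Of the other genes picked as partners or targets of Prdm1, Pax5 was at 1995 and 2078 units at day 10 and with TNF. On these arrays Xbp1 was at 5965 and 5619 units, Spib at 422 and 301, and Id3 at 362 and 309.

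Vdr encodes the nuclear receptor of active vitamin D. It was at -107, -15.1, 43.7 and 912 units in progenitors, at day 7, at day 10 and with TNF, at least 2.28-fold higher. Rxra, its dimer partner, was at 1989 and 1093 units at day 10 and with TNF, a 1.82-fold difference in the other direction, and Rxrb was at 3496 and 3039.

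The remaining members act in signalling and membrane traffic, or are less well described. Rabgap1l encodes a protein with a Rab GTPase-activating domain and was at -406, 15.6, 35.1 and 1644 units in progenitors, at day 7, at day 10 and with TNF, at least 4.11-fold higher. Gnb4, a G protein beta subunit gene, was at -239, 240, 362 and 912 units, at least 2.28-fold higher. Gnb1 and Gnb2, its more widely expressed relatives, were at 2099 and 15855 units with TNF and 1.16-fold and 1.26-fold lower than at day 10. Ankrd33b, named for its ankyrin repeats, was at 120, 384, 305 and 948 units, at least 2.37-fold higher. The gap between the TNF array and the others in these 3 genes is set by the rule.

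**Figure D2:**
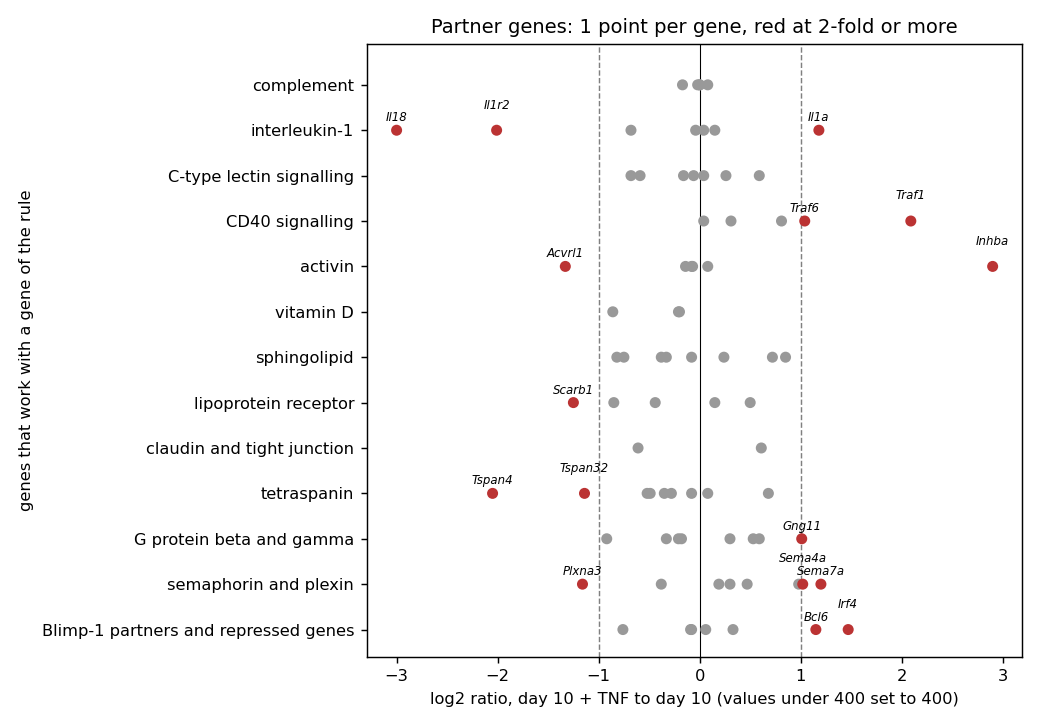
Log2 ratio of the TNF to the day 10 array (horizontal axis, values under 400 units set to 400) for 80 genes in 13 rows that work with a gene of the set, with 1 point per gene; red points are at least 2-fold apart. Inhba (2.90) and Traf1 (2.09) lie far to the right, Il18 (-3.00), Tspan4 (-2.05) and Il1r2 (-2.01) far to the left, and no complement, lectin, vitamin D or sphingolipid gene passes 2-fold.

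Over all these partner genes, which were picked once the 20 members were known, 142 were measured and 80 tested. Of the 80, 9 were at least 2-fold higher with TNF and 7 lower, where 5.05% of all genes tested were higher and 4.82% lower. The higher ones were Il1a, Traf1, Traf6, Inhba, Gng11, Sema4a, Sema7a, Bcl6 and Irf4.

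Beneath 400 units the members were not alike on the 3 arrays without TNF. The progenitor array was the lowest of the 3 for 17 of 20 genes, and 10 members were below 0 there, against 3 at day 7 and 2 at day 10. Medians were 7.1 units in progenitors, 194 at day 7 and 185 at day 10. Of the 20, 17 were higher at day 7 than in progenitors and 13 were higher at day 10 than at day 7. Among the other genes below 400 units on these 3 arrays, 49.3% were higher at day 7 than in progenitors. At day 10, 49.6% of them were higher than at day 7. The rule used these 3 arrays, so the counts are a description, and no rise of the set is read from them. Vldlr, Cacna1c and Cldn1 were the exceptions, with the progenitor array the highest of the 3. These differences lie in the range where a large part of the probe sets read below 0, so for a single gene they are not a measured rise.

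Probe sets that the rule did not use gave a check for the 4 members with more than 1; the other 16 members have 1 each. None of the 5 other probe sets reached 400 units with TNF. That of Cldn1 was at 126, 145, 18.0 and 308 units on the 4 arrays in time order, and that of Acod1 at -67.7, -15.8, -135 and 142; both were highest on the TNF array. The other probe set of Vdr was at 127, 94.3, -45.0 and 122 units and did not separate TNF from the progenitor. Those of Vldlr were at 14.0 and -124 units with TNF, and both were higher on another array. All 5 were higher with TNF than at day 10, by 52.3 to 290 units, but below 400 units on both arrays. The share of all such dim probe sets that were higher is not given, so this count is only a description. The rule took the brightest probe set of each gene, so the others were dimmer from the start, and dim probe sets limit what they can show. For Vldlr and Vdr the value with TNF rests on 1 probe set.

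**Figure D3:**
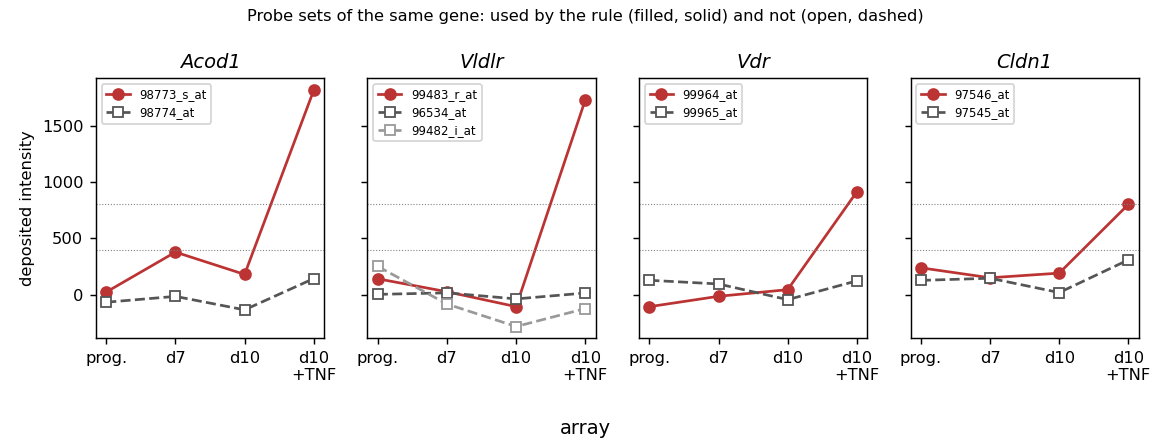
Deposited intensity (vertical axis) on the 4 arrays (horizontal axis) for all probe sets of Acod1, Vldlr, Vdr and Cldn1; filled red points are the probe set used, open points the others, and dotted lines mark 400 and 800 units. The 5 open series stay at or below 308 units, and those of Acod1 and Cldn1 are highest on the TNF array.

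Genes near the thresholds show how the set is bounded. Just inside are Cldn1 (800.2 units with TNF), Tspan13 (834) and Bcl3 (847), and, by the highest value without TNF, Mx1 (389), Ankrd33b (384) and Acod1 (377). Just outside, with too low a value on the TNF array, are the lipid phosphatase gene Inppl1 (798.7 units), the Myc family gene Mycl (797) and 1700022H01Rik (796.5). With an array without TNF at 400 units or more, the nearest are the neurotensin receptor gene Ntsr2 (400.3 units at day 10 and 1450 with TNF), the homeobox gene Tgif2 (426 at day 7 and 998 with TNF) and the WAVE complex gene Nckap1 (432 at day 10 and 1006 with TNF). Of 3569 genes below 400 units on the 3 arrays without TNF, 173 (4.85%) reached 400 units with TNF and 20 (0.56%) reached 800, while the median of all 3569 was 31.6 units.

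Most genes that stood out on the TNF array were not dim on all the others. A total of 122 genes were at least 2-fold higher with TNF than on each of the 3 other arrays, and the 20 members are among them. The other 102 lay at 400 units or more on at least 1 array without TNF, which follows from their not meeting the rule. Examples are the maturation genes Cd83, at 4309 units at day 10 and 18224 in the TNF culture, and Ccr7, a chemokine receptor gene of migrating dendritic cells, at 5996 and 18735. In the maturation list 23 of 30 tested genes were at least 2-fold higher with TNF and 0 at least 2-fold lower. The median log2 ratio was 1.41, and 23 is the count of higher genes. Il1b and Cd40 are the 2 of these higher genes that belong to the 20. Without both, 21 of 28 were at least 2-fold higher, 0 were at least 2-fold lower and the median was 1.34, beside 5.05%, 4.82% and -0.01 over all genes. Smaller falls occurred, as for Fabp5, at 4131 units at day 10 and 2736 with TNF. The list was chosen with earlier results of these data known, so its counts are a description.

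**Figure D4:**
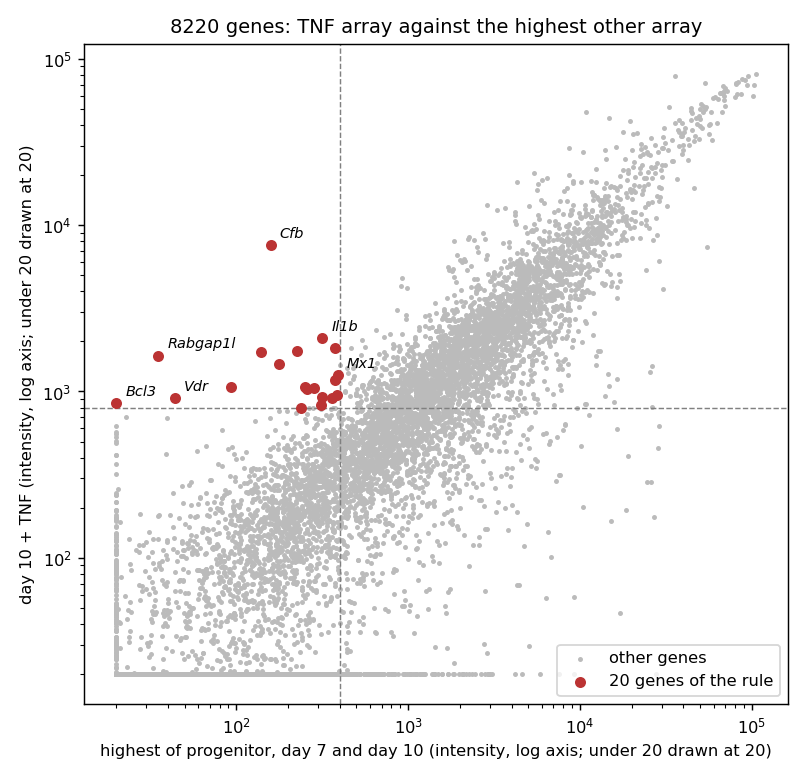
Intensity with TNF (vertical log axis) against the highest of the progenitor, day 7 and day 10 arrays (horizontal log axis) for 8220 genes, values under 20 units drawn at 20; dashed lines mark 400 and 800 units. The 20 genes (red) fill the upper left corner, where Cfb at 7591 units stands apart from the rest, at 2097 units or less.

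The same rule turned to each other array gives its counts there. On the progenitor array 62 genes were at least 800 units and below 400 on the 3 others, on the day 7 array 4, on the day 10 array 7, and on the TNF array 20. At 1200 units or more the counts were 21, 1, 2 and 8. The day 7 genes were Wdr82, Pam16, Ifna9 and Gp9, and the day 10 genes included Cdkn1c and the costimulatory family gene Cd276, which went from 1058 units at day 10 to 229 in the TNF culture. The count on the TNF array was thus higher than on the day 7 and day 10 arrays and lower than on the progenitor array; with 1 array each, how far such counts vary between arrays of 1 group is not known.

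**Figure D5:**
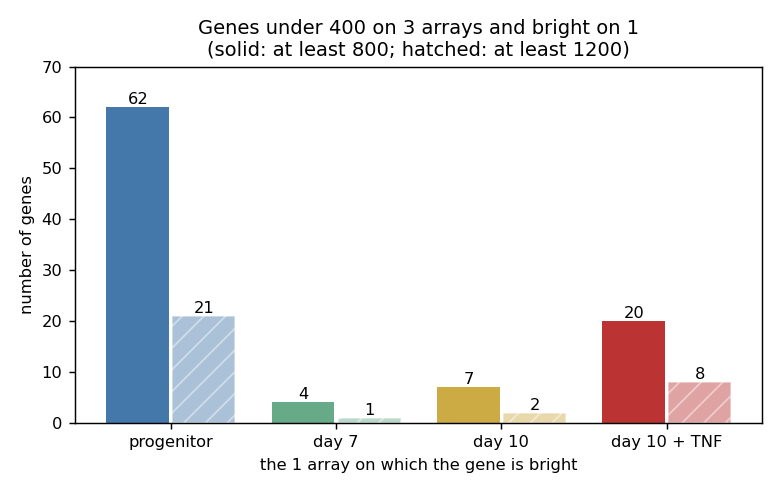
Number of genes (vertical axis) that lie below 400 units on 3 arrays and at or above 800 units (solid bars) or 1200 units (hatched bars) on the array named on the horizontal axis. The counts at 800 units are 62 for the progenitor, 4 for day 7, 7 for day 10 and 20 for day 10 with TNF.

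Markers of several cell types moved between the same arrays as the 20 genes. Of 17 granulocyte markers measured, 13 were tested between day 10 and TNF, 0 were higher and 8 lower, with a median log2 ratio of -1.83; their summed level was 273779, 179449, 241109 and 81543 units on the 4 arrays in time order, and Mpo, Mmp9 and Gfi1 were at or below 0 with TNF. Chil3 makes up most of the sum with TNF, and without it the sum was 159426 units at day 10 and 20056 with TNF. Ngp and Ltf, granule genes of maturing neutrophils, were 32.4-fold and 31.5-fold lower with TNF. Of 16 macrophage markers, 11 were tested, 0 were higher and 2 lower, with a summed level of 16040, 80940, 155733 and 118448 units on the 4 arrays in the same order. Among them C1qa, Siglec1 and Apoe were at or below 0 with TNF, of which C1qa and Siglec1 were so at day 10 too, while Mmp12 (48085 units), Cd68 (24600) and Csf1r (11793) stayed bright with TNF. In the T and NK cell list 1 of 18 genes was tested, 0 reached 800 units on any array, and the summed level with TNF was -542 units. B cell markers had 5 of 13 tested and 0 changed 2-fold, with a summed level of 5829 units at day 10 and 6374 with TNF. Of 14 dendritic cell markers tested, 5 were at least 2-fold higher with TNF and 0 at least 2-fold lower. The 2 eosinophil markers tested, Epx (2844 and 1240 units) and Prg2 (8524 and 3268), were at least 2-fold lower. In the erythroid list 1 of 4 tested genes was at least 2-fold higher. In the megakaryocyte list the 1 tested gene was at least 2-fold lower. In the mast cell and basophil, plasmacytoid and stromal lists 0 changed 2-fold. These marker lists were also chosen with earlier results of these data known. The part of a change in cell mixture in the values of the 20 genes was not tested.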

How the data were processed

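Total RNA of 4 samples was measured on 1 array each. The authors deposited a linear intensity for every probe set; the sources used here do not say how background and scaling were handled, and hybridisation followed a published protocol, per the labels. Probe sets with 1 gene symbol in the platform annotation were kept without control probe sets, 10276 of 12654. Of these, 10257 were matched by Entrez number and given the current RefSeq symbol, whether or not it differed. For each of 8220 genes the probe set with the highest mean was used (1609 genes had more than 1). The intensities were used as deposited, because the rule is set on them; scaling to a common 75th percentile (factors 0.962 to 1.05) and quantile normalization were alternatives. For ratios, values under 400 units were set to 400, and a gene was tested when either array exceeded 400 units and counted at 2-fold. With 1 array a group no test was possible. The rule and fold scripts were tested on simulated data. Members, the 24 gene lists (619 genes, 502 measured) and the partner genes were chosen with earlier results of these data known. All members are named; other genes are named from fixed lists, as partners or near a threshold. Promoters are RefSeq's. Python 3.11.15 with pandas 2.3.3 and numpy 2.4.6 was used.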

Additional observations from a re-analysis of the deposited data

Results flagged for a closer look

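Among 2312 probe sets without exactly 1 gene symbol, which the gene table leaves out, 1 met the same rule. It was at -299, -18.0 and -25.1 units on the progenitor, day 7 and day 10 arrays and at 902 units with TNF. It is listed because its signal lies in data outside the gene table and above the level without TNF. Its gene is not named in the annotation used here. Turned to the other arrays, the rule found 7 such probe sets for the progenitor, 1 for day 7 and 4 for day 10.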

How the results depend on the processing

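No paired analysis was possible because each group has 1 array. The set held 20 genes as deposited and 25 after either scaling, of which 19 were shared (Mx1 left; Inppl1, Mycl, Bmp1, Six2, Dbndd2 and 1700022H01Rik entered). It held 21 with the probe set of highest single value, 18 without shared or looser probe sets (Acod1, Cacna1c and Vldlr left, Cd86 entered) and 16 with single-probe-set genes alone. With a lower threshold of 300 units it held 12, and the progenitor, day 7 and day 10 counts were 31, 1 and 1; with an upper threshold of 1200 they were 8, 21, 1 and 2. Over all genes, 220 higher and 210 lower with TNF became 564 and 504 with a floor of 104.9 units, 141 and 112 with a floor of 800, and 59 and 44 at 3-fold. Genes of the fixed lists, 53 higher and 22 lower, became 24 and 11 at 3-fold, and 79 and 51 with the floor of 104.9 units. With that floor 1 of the 5 other probe sets was 2-fold higher instead of 0. The stricter kappaB consensus was in 0.0% of member promoters. Of 240 counts of single lists, 199 stayed within 1.5 times. Moved thresholds, floors and folds change counts by their own construction. Scaling does so too, for genes near a threshold. The factor to a common 75th percentile was 1.05 for the day 10 array and 1.03 for the TNF array. With it Mx1 went from 389 to 409 units at day 10. Why the arrays differed in scale was not tested.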
